A study of Mus musculus with 11 samples.

Results

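The 40 cell cycle genes described here are those that dividing mammalian cells switch on between late G1 and mitosis, and they were followed in cells of the mouse brain, with tests in 9 of the 18 cell types named here, after sham surgery or middle cerebral artery occlusion/reperfusion (MCAO/R), with or without the gene Lrg1. They were chosen by name, as 40 of the 32285 genes in the count tables, and comprise 18 genes of the G1/S transition and S phase and 22 genes of G2 phase and mitosis. All 40 were detected in the data. In microglial cells, the resident macrophages of the brain, the S phase genes were more abundant in every MCAO/R + Lrg1-/- library (319.6 to 749 CPM, that is UMIs scaled to an equal total per library and cell type) than in any library of the other 3 groups (133 to 174). For the G2 and M phase genes the MCAO/R + Lrg1-/- libraries overlapped those of the sham + Lrg1-/- and MCAO/R + WT groups, and without Stmn1 those of the sham + Lrg1-/- group alone. In choroid plexus epithelial cells the S phase genes were also highest in the MCAO/R + Lrg1-/- libraries, by a smaller margin. In ciliated ependymal cells these libraries were barely above the others, the lowest at 186 CPM against 183 in MCAO/R + WT replicate 2.

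The data are single-cell RNA sequencing counts (10x Genomics 3′ chemistry) of cells dissociated from the right brain, with 1 library per mouse and 11 libraries in 4 groups. The sham + WT group held 3 wild-type mice after sham surgery (replicates 1, 2 and 3), and the sham + Lrg1-/- group held 3 Lrg1 knockout mice after sham surgery (replicates 1, 2 and 5). The MCAO/R + WT group held 2 wild-type mice after MCAO/R (replicates 1 and 2), and the MCAO/R + Lrg1-/- group held 3 Lrg1 knockout mice after MCAO/R (replicates 1, 2 and 5). In MCAO/R a filament blocks the middle cerebral artery for a limited time and is then withdrawn, so that the tissue is first ischemic and then reperfused, while sham surgery leaves the artery open. The labels do not give the reperfusion time. By the study's methods the Lrg1-/- mice are conventional knockouts that lack the gene in every cell, came from another supplier than the wild-type mice, were backcrossed to C57BL/6N and are given an older age, so genotype, source, age and handling cannot be told apart. The methods lyse red blood cells in the suspensions, and state male sex for the wild-type mice alone.

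A cell that divides first commits to S phase through cyclin E, then copies its DNA, and then passes through G2 phase into mitosis. The S phase genes encode the helicase that opens replication origins, the clamp that holds the polymerases on DNA, and the enzymes that supply deoxynucleotides, and they are switched on by E2F transcription factors. The G2 and M phase genes encode cyclins A and B, their kinase Cdk1, and the proteins that build the spindle, attach the chromosomes and split the cell, and many of them carry CHR and CCAAT elements in their promoters. Microglial cells divide rarely in the healthy adult brain and can divide after injury, whereas neural progenitors of the adult brain keep dividing. Some of the genes have other roles: Stmn1 encodes a microtubule regulator that postmitotic cells also make, Pcna and Rrm1 also serve DNA repair, and cyclin E, Mcm and Pcna transcripts can rise before a cell has begun to copy its DNA.

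The promoters of these genes show what they share in sequence beyond their names. A RefSeq promoter on GRCm38.p6 was matched for 32 of the 40 genes, and the 150 bases before the start were searched on both strands for 4 spellings of an E2F site (TTTCCCGC, TTTCGCGC, TTTGCCGC and TTTGGCGC), for the CHR element (TTTGAA) and for the CCAAT box (CCAAT). None of the searched words is part of another. An E2F site was present in 5 of the 32 promoters (15.6%), a CHR in 7 (21.9%) and a CCAAT box in 24 (75.0%). Among all 32851 promoters of the same length the shares were 1.24%, 9.07% and 24.5%. Of the 15 S phase promoters, 4 held an E2F site and 1 a CHR, and of the 17 G2 and M phase promoters, 1 held an E2F site and 6 a CHR. A CCAAT box was present in 9 and 15 of them. Promoters of 6 genes whose levels are followed below are printed 5′ to 3′ along the gene, each 150 bases long and ending just before the start. They are the first 6 in a fixed order of genes that held a searched word, and genes without a match were passed over. Capitals mark the searched words on either strand (a CCAAT box on the other strand reads ATTGG, and a CHR reads TTCAAA).
Mki67 (chr7:135716380-135716529, minus strand): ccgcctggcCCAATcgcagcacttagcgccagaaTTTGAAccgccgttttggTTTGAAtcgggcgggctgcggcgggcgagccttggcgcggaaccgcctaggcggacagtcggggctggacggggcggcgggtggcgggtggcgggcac
Top2a (chr11:99024190-99024339, minus strand): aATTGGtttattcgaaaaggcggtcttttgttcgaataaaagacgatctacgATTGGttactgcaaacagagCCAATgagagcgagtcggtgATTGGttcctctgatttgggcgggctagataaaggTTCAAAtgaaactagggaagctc
Cdk1 (chr10:69352913-69353062, minus strand): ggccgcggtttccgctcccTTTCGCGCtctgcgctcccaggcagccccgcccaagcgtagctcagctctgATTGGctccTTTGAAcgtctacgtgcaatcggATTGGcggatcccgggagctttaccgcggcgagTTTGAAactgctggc
Ccnb2 (chr9:70421555-70421704, minus strand): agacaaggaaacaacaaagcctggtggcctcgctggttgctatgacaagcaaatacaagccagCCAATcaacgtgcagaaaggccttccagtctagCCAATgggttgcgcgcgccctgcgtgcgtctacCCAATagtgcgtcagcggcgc
Ube2c (chr2:164769779-164769928, plus strand): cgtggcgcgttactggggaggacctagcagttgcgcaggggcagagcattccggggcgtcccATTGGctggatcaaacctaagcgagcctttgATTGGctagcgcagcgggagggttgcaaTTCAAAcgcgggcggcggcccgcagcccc
Mcm5 (chr8:75109359-75109508, plus strand): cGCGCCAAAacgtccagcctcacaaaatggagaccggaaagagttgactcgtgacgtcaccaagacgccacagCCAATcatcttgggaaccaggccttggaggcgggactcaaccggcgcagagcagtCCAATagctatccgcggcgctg

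In these windows Mki67, Top2a, Cdk1 and Ube2c held CHR elements, Ccnb2 held CCAAT boxes alone, and Cdk1 and Mcm5 held an E2F site. A match is a description of the letters, and no factor's binding was measured.

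Lrg1, the deleted gene, was read first in each library. Endothelial cells, which held most of its transcripts, had 149, 528 and 223 Lrg1 UMIs in the sham + WT, 14688 and 13015 in the MCAO/R + WT and 0 in each of the 6 Lrg1-/- libraries. Microglial cells held 3, 17 and 6 in the sham + WT, 1153 and 1265 in the MCAO/R + WT and 0 in every Lrg1-/- library. Libraries held 37159497 to 171813031 UMIs in all, and of the 132437 cells with over 500 genes, over 1000 UMIs and under 25% mitochondrial UMIs, 125866 remained after the removal of doublets, 37104 of them microglial cells in 4 clusters. At most 1.15% of the barcodes of a library were shared with another library. In 5 of the 6 Lrg1-/- and 1 of the 5 WT libraries the automatic doublet threshold marked at most 0.0205% of cells, and the highest 6% of scores were removed instead, against 2.63 to 4.64% in the other 5. With doublets kept, the share of microglial cells with at least 3 of the genes, described below, was 9.32, 2.95 and 2.39% in the MCAO/R + Lrg1-/- and 0.253 and 0.431% in the MCAO/R + WT libraries. Doublet treatment, depth and transcripts of other cell types moved with genotype and accompany every result below. The sham + Lrg1-/- libraries (15500, 9000 and 5650 barcodes) and MCAO/R + Lrg1-/- replicate 1 (8500) hold round numbers of barcodes. Haemoglobin transcripts made up 1.12 to 2.41% of the UMIs of microglial cells in the Lrg1-/- libraries against 0.00152 to 0.00238% in the WT libraries. MCAO/R + Lrg1-/- replicate 1 stood apart. Its median was 1700 UMIs per microglial cell, against 8370 and 6849 in the other libraries of its group. Many microglial results that rest on this group are therefore given by library or also without replicate 1. Some fold changes of single genes, and the counts for the further gene lists described below, are given with all libraries only.

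Microglial cells were first compared by the share of cells with at least 3 of the 40 genes detected, after every cell was thinned to 1000 UMIs so that depth was equal. In the sham + WT group the share was 0.342% (17 of 4977 cells), 0.170% (7 of 4116 cells) and 0.245% (9 of 3679 cells). In the sham + Lrg1-/- group it was 0.918% (17 of 1852 cells), 0.767% (10 of 1303 cells) and 0.399% (2 of 501 cells), and in the MCAO/R + WT group 0.255% (11 of 4322 cells) and 0.432% (19 of 4398 cells). In the MCAO/R + Lrg1-/- group it was 9.34% (265 of 2838 cells), 3% (123 of 4100 cells) and 2.43% (122 of 5018 cells). Each of these 3 libraries lay above all 8 others. The group means were 0.252% ± 0.0860 (SD, n = 3), 0.695% ± 0.267 (SD, n = 3), 0.343% ± 0.126 (SD, n = 2) and 4.92% ± 3.83 (SD, n = 3). No test was run on this share because it is a score over genes chosen with earlier results of these data known. The spread within the MCAO/R + Lrg1-/- group was wide, and the difference from the MCAO/R + WT group was 4.58 percentage points with all libraries and 2.37 without MCAO/R + Lrg1-/- replicate 1. The difference from the sham + Lrg1-/- group was 4.23 percentage points, and 2.02 without that library.

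Transcripts set free from broken cells can give a cell UMIs of genes it does not express, so the same share was read in oligodendrocytes, mature myelinating cells that do not divide. It ranged from 0.212 to 1.44% over their 11 libraries, at median depths of 3613 to 16294 UMIs per cell before thinning, against 1700 to 11874 in microglial cells. Oligodendrocytes make Stmn1, which 30.2 to 79.2% of them held at 1000 UMIs, so this range is no measure of stray transcripts. Without Stmn1, an alternative chosen after seeing the data, the share in oligodendrocytes was 0.0563 to 0.129% by group (11 of 12343 cells in all) and at most 0.8% in a library (1 of 125 cells). In microglial cells it was 0.181, 0.0486 and 0.190% in the sham + WT, 0.486, 0.537 and 0.200% in the sham + Lrg1-/-, 0.185 and 0.114% in the MCAO/R + WT and 5.95, 2.17 and 1.45% in the MCAO/R + Lrg1-/- libraries. The 3 MCAO/R + Lrg1-/- libraries were again above the other 8. Median depth differed between the types, so the oligodendrocyte shares set no bound on stray transcripts in microglial cells, whose part was not tested. With every UMI counted, and so with depth unequal, the microglial shares were 20.2, 24.004 and 21.1% in the sham + WT, 10.7, 7.52 and 9.38% in the sham + Lrg1-/-, 35.1 and 37.3% in the MCAO/R + WT and 31.3, 47.3 and 36.4% in the MCAO/R + Lrg1-/- libraries. The MCAO/R groups overlapped each other and were above both sham groups, of which the Lrg1-/- group was the lower. Cells with at least 10 of the genes, counted over all their UMIs, were 123, 276 and 145 in the MCAO/R + Lrg1-/- libraries (4.33, 6.73 and 2.89%), and at most 0.307% of microglial cells in any other library. At 1000 UMIs, cells with at least 2 of the genes were 26.2, 9.12 and 8.67% in the MCAO/R + Lrg1-/- and 2.55 and 4.07% in the MCAO/R + WT libraries, and cells with at least 5 were 1.41, 0.439 and 0.379% against 0.0231 and 0.0227%. Thinned to 3000 UMIs, with shallower cells left out, the shares were 39.8, 16.2 and 11.7% in the MCAO/R + Lrg1-/- libraries and 1.32 to 4.62% in the others, and 2155, 649 and 1044 cells of the former were too shallow to enter.

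**Figure D1:**
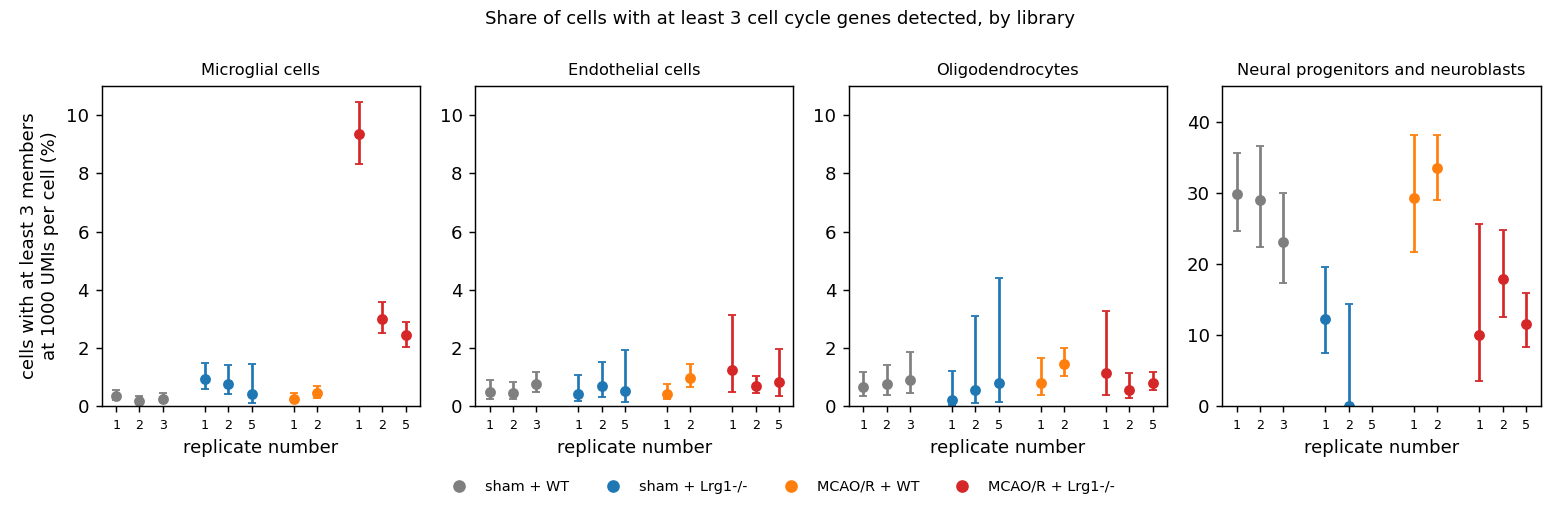
Percent of cells with at least 3 of the 40 cell cycle genes detected at 1000 UMIs per cell (y axis, with 95% Wilson intervals that cover counting error only) in each library with at least 20 cells of the type (x axis, replicate number; colours, the 4 groups) for 4 cell types. In microglial cells the MCAO/R + Lrg1-/- libraries lie at 2.43 to 9.34%, above the other 8 libraries, while in neural progenitors and neuroblasts (right, with its own y scale) the Lrg1-/- libraries lie below the WT libraries.

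The 4 microglial clusters held these cells unevenly. One cluster of 6144 cells, led by Spp1, Ccl12, Ms4a6d and the complement genes C1qa, C1qb and C1qc, had the fewest UMIs per cell (median 1792), and in it the share with at least 3 genes was 9.56%, 6.29% and 7.91% in the MCAO/R + Lrg1-/- libraries. The same cluster gave 2.92% in the sham + WT group (5 of 171 cells, all 5 in replicate 3, at 8.20%), 1.28% in the sham + Lrg1-/- group (19 of 1482 cells) and 0.649% in the MCAO/R + WT group (2 of 308 cells). Microglial cells of the genotypes were spread differently over the clusters. This one made up 1.34% and 3.53% of the microglial cells of the sham + WT and MCAO/R + WT groups but 40.5% and 35.0% in the sham + Lrg1-/- and MCAO/R + Lrg1-/- groups. The largest cluster, of 19114 cells, made up 90.3% and 67.8% in the WT and 11.9% and 10.3% in the Lrg1-/- groups. In MCAO/R + WT replicates 1 and 2 it made up 46.7% and 88.5%. The low-UMI cluster made up 90.7% of the microglial cells of MCAO/R + Lrg1-/- replicate 1 but 24.4% and 12.1% in replicates 2 and 5. Erythroid genes were the next best match of the low-UMI cluster after microglial genes, and the study's methods left out clusters that mixed erythroid with microglial markers, a step that was not repeated. Without the cluster, an alternative chosen after seeing the data, the share was 7.20, 1.94 and 1.68% in the MCAO/R + Lrg1-/- libraries and 0.111 to 0.516% in the other 8. Another cluster of 7581 cells, led by Tnf, Ccl3, Il1a and Nlrp3, gave 6.38%, 2.42% and 2.46% in the MCAO/R + Lrg1-/- libraries and 0.305% in the MCAO/R + WT group. In the sham + WT and sham + Lrg1-/- groups it gave 0.398% and 0.730%. Sham + Lrg1-/- replicate 2, at 2.78% (1 of 36 cells), lay within the range of the MCAO/R + Lrg1-/- libraries. In the largest cluster the share was 7.32% (3 of 41 cells), 0.5% and 0.505% in the MCAO/R + Lrg1-/- libraries and 0.251% over all libraries. It was 0.156%, 0.460% and 0.321% there in the sham + WT, sham + Lrg1-/- and MCAO/R + WT groups, and 1.20% in sham + Lrg1-/- replicate 5 (1 of 83 cells). In the fourth cluster it was 8.54% (7 of 82 cells), 0.525% and 0.850% in the MCAO/R + Lrg1-/- libraries and 0.868% over all. The other groups gave 1.10%, 0.437% and 0.962% in the same order.

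Among the 510 MCAO/R + Lrg1-/- microglial cells with at least 3 genes at 1000 UMIs, 75.7% held more S phase than G2 and M phase genes, with 78.5%, 73.98% and 71.3% in the 3 libraries. S phase genes alone were seen in 123 of them, G2 and M phase genes alone in 7, and both in 380. In these cells Stmn1 was detected in 58.4%, the clamp gene Pcna in 45.3%, the helicase genes Mcm3, Mcm7, Mcm6, Mcm5 and Mcm2 in 30.6%, 19.6%, 19.02%, 18.4% and 14.3%, and Mki67, which encodes the proliferation antigen Ki-67, in 5.10%. Replicate 1 supplied 265 of the 510 cells. By library Stmn1 was detected in 58.1%, 49.6% and 68.03%, Pcna in 52.1%, 39.02% and 36.9%, Mcm3 in 28.7%, 30.1% and 35.2% and Mki67 in 2.64%, 8.94% and 6.56%. The other groups had too few such cells to compare gene by gene, with 33 in the sham + WT, 29 in the sham + Lrg1-/- and 30 in the MCAO/R + WT group, of which 45.5%, 31.03% and 56.7% held more S phase genes. In neural progenitors and neuroblasts, where division is ongoing, the cells with at least 3 genes held more G2 and M phase genes in 54.4%, 77.3% and 65.8% of cases in the sham + WT libraries, 78.6% of 14 cells in sham + Lrg1-/- replicate 1, 39.4% and 75.2% in the MCAO/R + WT libraries and 66.7% of 3 cells, 65.4% and 56.3% in the MCAO/R + Lrg1-/- libraries. In MCAO/R + WT replicate 1 alone, with 33 such cells, more cells held a majority of S phase genes (48.5%). Stmn1 counts here as a G2 and M phase gene. Without it the shares by group were 59.5%, 61.5%, 66.7% and 65.0%, and 34.6% in MCAO/R + WT replicate 1. Of the 331 MCAO/R + Lrg1-/- microglial cells with at least 3 genes without Stmn1, 79.2% held more S phase genes, with 82.2%, 74.2% and 78.1% in the 3 libraries.

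Summed over all microglial cells of a library, the 18 S phase genes gave 162, 145 and 133 CPM in the sham + WT, 151, 141 and 133 in the sham + Lrg1-/-, 174 and 160.0 in the MCAO/R + WT and 749, 403 and 319.6 in the MCAO/R + Lrg1-/- libraries. The lowest MCAO/R + Lrg1-/- library was above the highest of the other 8. The 22 G2 and M phase genes gave 115, 82.5 and 78.9, then 214, 219 and 97.4, then 78.6 and 201, and 389, 152 and 220.2 in the same order of groups. Here the MCAO/R + Lrg1-/- libraries were above the sham + WT libraries and overlapped those of the other 2 groups. Stmn1 made up 39.7 to 79.1% of these UMIs. Without it they were 42.9, 22.2 and 31.6 in the sham + WT, 70.7, 132 and 37.5 in the sham + Lrg1-/-, 27.9 and 41.9 in the MCAO/R + WT and 151, 69.3 and 66.4 in the MCAO/R + Lrg1-/- libraries. The MCAO/R + Lrg1-/- libraries were then above every WT library and overlapped the sham + Lrg1-/- libraries. Summed counts cannot tell more cells with these transcripts from more transcripts per cell. In choroid plexus epithelial cells too the S phase genes were highest in the MCAO/R + Lrg1-/- libraries, at 262, 128 and 130 against 73.1 to 110.8. In ciliated ependymal cells they were at 225, 212 and 186 against 133 to 183 in the other libraries, so that the margin was narrow.

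**Figure D2:**
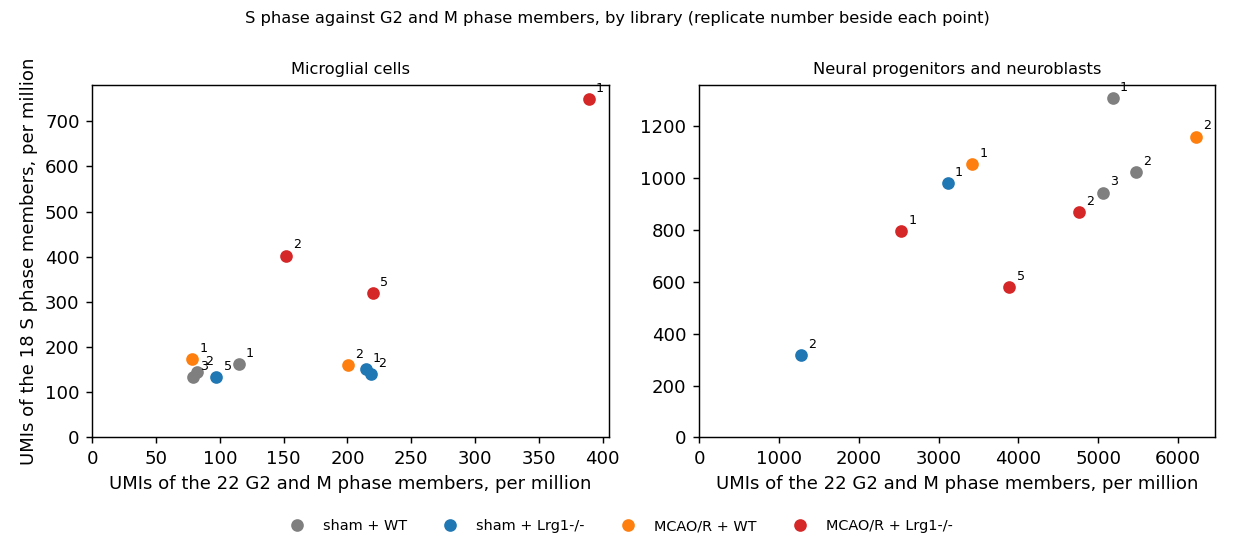
CPM of the 18 S phase genes (y axis) against the 22 G2 and M phase genes (x axis), summed per library in microglial cells (left) and in neural progenitors and neuroblasts (right), with each point 1 library of at least 20 cells, its replicate number beside it and its group by colour; the G2 and M phase genes include Stmn1. In microglial cells the 3 MCAO/R + Lrg1-/- libraries lie at 319.6 to 749 S phase CPM, above the range of 133 to 174 of the other 8, while in neural progenitors and neuroblasts the G2 and M phase genes exceed the S phase genes in every library. Without Stmn1 the order in the latter cells reverses in sham + Lrg1-/- replicate 2, at 87.5 against 319 CPM.

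To compare single genes, UMIs were summed per library and tested with edgeR, and a gene was called when its adjusted p over all genes tested was below 0.05 and its natural log fold change was above 0.25 in size. Levels below are normalised CPM, and the error beside a log2 fold change is its standard error. All 40 genes passed the low count filter in microglial cells. After MCAO/R, 25 of the 40 were called higher in the Lrg1-/- than in the WT group and 0 lower, while 13.6% of all 18775 genes tested were called higher and 25.2% called in either direction. The median log2 fold change of the 40 genes was 1.62, against 0.11 over all genes, and 39 of the 40 were positive. By role, the calls took in 2 of 2 G1/S cyclins, 9 of 10 genes of the replication origin and fork, 4 of 4 of nucleotide supply and 2 of 2 of S phase chromatin, so that only Pcna of the 18 S phase genes was not called. Of the G2 and M phase genes, 5 of 9 mitotic cyclins and kinases, 0 of 2 of the anaphase promoting complex, 1 of 3 of the kinetochore and chromosomal passenger complex, 1 of 6 of the spindle and midzone and 1 of 2 of the chromosome were called, 8 of 22 in all. The count was 16 without MCAO/R + WT replicate 1, 23 without MCAO/R + Lrg1-/- replicate 1 and 23 without the low-UMI cluster. Of the 25 genes, 14 were called under every alternative tried (Aurkb, Ccne1, Cdc45, Cdc6, Cdk1, Gins2, Hells, Mcm2, Mcm3, Mcm5, Mcm6, Mcm7, Tyms and Uhrf1).

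**Figure D3:**
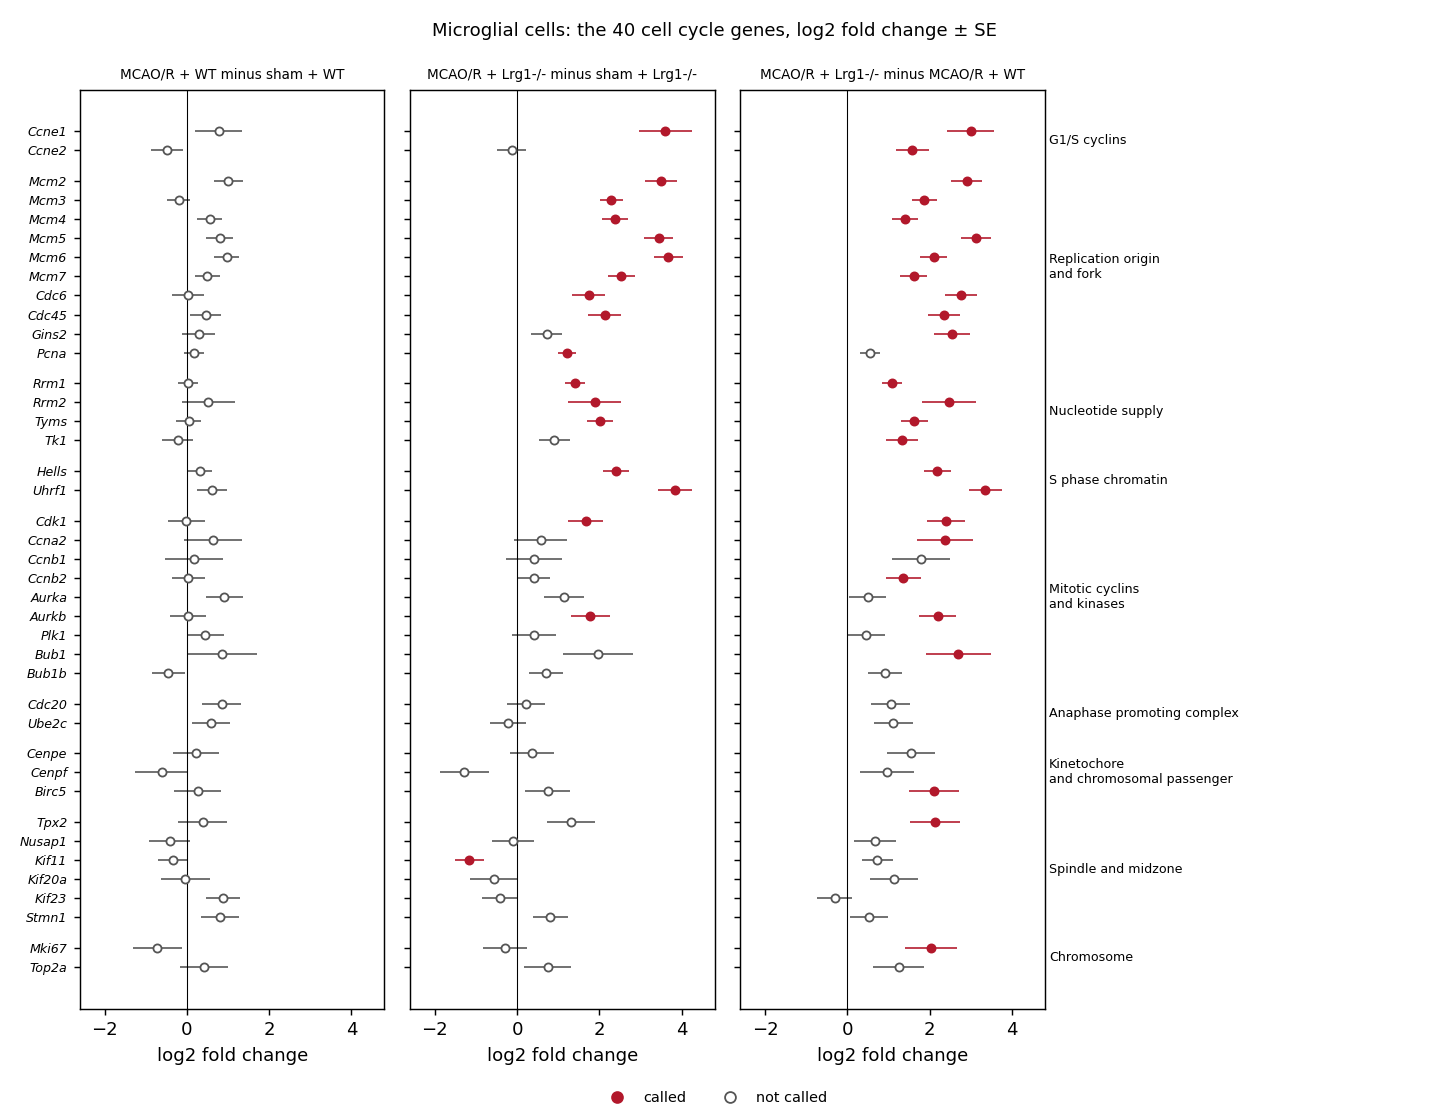
Log2 fold change of each of the 40 cell cycle genes in microglial cells (x axis; bars, standard error), by role (right margin), for MCAO/R in WT mice (left), MCAO/R in Lrg1-/- mice (middle) and Lrg1-/- against WT after MCAO/R (right), with filled red points for called genes and open grey points for the others. No gene is called on the left, most of the S phase genes at the top are called on the middle and right panels, and most of the spindle and midzone genes are not called in any panel. The middle and right panels share the MCAO/R + Lrg1-/- libraries.

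The G1/S cyclins, which with their kinase partner start S phase, differed in how they moved. Ccne1 was at 0.622, 0.350 and 0.318 in the sham + WT, 0.711, 0.460 and 0 in the sham + Lrg1-/-, 0.994 and 0.465 in the MCAO/R + WT and 9.75, 5.37 and 3.003 in the MCAO/R + Lrg1-/- libraries. Every MCAO/R + Lrg1-/- library was above the other 8, and Ccne1 was higher than in the MCAO/R + WT group by a log2 fold change of 2.997 ± 0.57 (edgeR adjusted p = 0.00351). Ccne2 was at 1.81, 2.07 and 1.78 in the sham + WT, 5.45, 4.45 and 2.99 in the sham + Lrg1-/-, 1.11 and 1.59 in the MCAO/R + WT and 6.62, 3.02 and 2.87 in the MCAO/R + Lrg1-/- libraries. Its MCAO/R + Lrg1-/- libraries were above all WT libraries but overlapped the sham + Lrg1-/- libraries, with a log2 fold change of 1.58 ± 0.39 (edgeR adjusted p = 0.0129) against the MCAO/R + WT group.

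Mcm2 to Mcm7 encode the subunits of the helicase that is loaded on origins before S phase and unwinds DNA ahead of the polymerases, and all had calls for a higher level in Lrg1-/- than in WT mice after MCAO/R. Mcm2 was at 1.81, 2.12 and 1.59 in the sham + WT, 2.13, 2.30 and 3.33 in the sham + Lrg1-/-, 4.83 and 2.57 in the MCAO/R + WT and 40.9, 25.5 and 17.4 in the MCAO/R + Lrg1-/- libraries. Mcm3 was at 24.5, 22.5 and 20.4 in the sham + WT, 14.2, 11.7 and 19.3 in the sham + Lrg1-/-, 21.8 and 17.4 in the MCAO/R + WT and 104, 65.6 and 46.2 in the MCAO/R + Lrg1-/- libraries. Mcm4 was at 6.29, 4.84 and 5.44 in the sham + WT, 3.55, 4.45 and 4.66 in the sham + Lrg1-/-, 8.22 and 7.99 in the MCAO/R + WT and 32.7, 18.9 and 13.4 in the MCAO/R + Lrg1-/- libraries. For each of these genes every MCAO/R + Lrg1-/- library was above all 8 others. Mcm5 was at 2.28, 2.17 and 2.60 in the sham + WT, 3.91, 2.76 and 2.99 in the sham + Lrg1-/-, 4.87 and 3.28 in the MCAO/R + WT and 55.7, 29.7 and 22.5 in the MCAO/R + Lrg1-/- libraries. Mcm6 was at 5.08, 5.02 and 5.23 in the sham + WT, 4.26, 2.30 and 3.33 in the sham + Lrg1-/-, 11.2 and 8.74 in the MCAO/R + WT and 65.4, 38.1 and 25.7 in the MCAO/R + Lrg1-/- libraries. Mcm7 was at 7.23, 7.42 and 6.79 in the sham + WT, 6.16, 3.99 and 5.99 in the sham + Lrg1-/-, 8.53 and 11.7 in the MCAO/R + WT and 48.03, 26.2 and 19.1 in the MCAO/R + Lrg1-/- libraries. These were again separated from the other 8 libraries, and in all 6 genes MCAO/R + Lrg1-/- replicate 1 was the highest. Against the MCAO/R + WT group the log2 fold change was 3.13 ± 0.36 (edgeR adjusted p = 0.000193) for Mcm5 and ranged from 1.40 to 2.90 for the other 5 (edgeR adjusted p from 0.000412 to 0.00691).

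The other genes of the origin and the fork include Cdc6, which loads the helicase, Cdc45 and Gins2, which complete the active helicase, and Pcna, the sliding clamp. Cdc6 was at 0.350 to 0.466 in the WT, 0.829, 0.920 and 0.665 in the sham + Lrg1-/- and 4.05, 2.48 and 2.03 in the MCAO/R + Lrg1-/- libraries. Cdc6 and Cdc45 rose by log2 fold changes of 2.77 ± 0.39 and 2.35 ± 0.40 after MCAO/R in the Lrg1-/- relative to the WT group. Gins2 was at 2.69, 2.62 and 2.57 in the sham + WT, 10.9, 16.4 and 5.66 in the sham + Lrg1-/-, 3.97 and 2.42 in the MCAO/R + WT and 29.8, 14.8 and 12.1 in the MCAO/R + Lrg1-/- libraries. It was higher in both Lrg1-/- groups than in either WT group, by 2.54 ± 0.44 (edgeR adjusted p = 0.00202) after MCAO/R and by 2.11 ± 0.39 (edgeR adjusted p = 0.00316) after sham surgery. The MCAO/R + Lrg1-/- libraries overlapped those of the sham + Lrg1-/- group. Pcna was at 87.6, 78.8 and 66.03 in the sham + WT, 61.9, 51.99 and 51.6 in the sham + Lrg1-/-, 90.4 and 84.4 in the MCAO/R + WT and 177, 117 and 88.6 in the MCAO/R + Lrg1-/- libraries. It was not called between genotypes after MCAO/R, with a log2 fold change of 0.54 ± 0.24 (edgeR adjusted p = 0.115), and MCAO/R + Lrg1-/- replicate 5 lay within the range of the MCAO/R + WT libraries.

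Rrm1 and Rrm2 are the subunits of ribonucleotide reductase, Tyms is thymidylate synthase and Tk1 thymidine kinase, and together they supply the building blocks of DNA. Rrm1 was at 10.1, 9.49 and 10.03 in the sham + WT, 6.63, 10.1 and 7.32 in the sham + Lrg1-/-, 10.4 and 9.77 in the MCAO/R + WT and 29.7, 18.5 and 16.7 in the MCAO/R + Lrg1-/- libraries. Rrm2 was at 1.09, 0.325 and 0.398 in the sham + WT, 2.25, 0.613 and 0.665 in the sham + Lrg1-/-, 0.507 and 1.25 in the MCAO/R + WT and 8.28, 3.47 and 3.21 in the MCAO/R + Lrg1-/- libraries. Tyms was at 6.50, 6.29 and 5.55 in the sham + WT, 4.26, 5.21 and 4.99 in the sham + Lrg1-/-, 8.44 and 4.12 in the MCAO/R + WT and 26.6, 18.9 and 13.3 in the MCAO/R + Lrg1-/- libraries. In each of these genes the MCAO/R + Lrg1-/- libraries were above all others, by the narrowest margin in Rrm2. Tk1 was at 3.21, 3.12 and 3.18 in the sham + WT, 4.74, 3.07 and 2.66 in the sham + Lrg1-/-, 2.51 and 2.91 in the MCAO/R + WT and 11.6, 4.59 and 4.66 in the MCAO/R + Lrg1-/- libraries. In the MCAO/R + Lrg1-/- group it was above all WT libraries but overlapped sham + Lrg1-/- replicate 1. The log2 fold changes against the MCAO/R + WT group were 1.09 ± 0.25 for Rrm1, 2.47 ± 0.65 for Rrm2, 1.63 ± 0.32 for Tyms and 1.32 ± 0.39 for Tk1 (edgeR adjusted p from 0.00421 to 0.0266).

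Uhrf1 recruits the maintenance DNA methyltransferase to newly copied DNA, and Hells remodels chromatin for methylation. Uhrf1 was at 1.40, 1.35 and 1.01 in the sham + WT, 1.66, 1.23 and 0.998 in the sham + Lrg1-/-, 2.53 and 1.25 in the MCAO/R + WT and 28.1, 18.3 and 12.6 in the MCAO/R + Lrg1-/- libraries. The 3 MCAO/R + Lrg1-/- libraries were far above the other 8, and its log2 fold change of 3.36 ± 0.39 (edgeR adjusted p = 0.000223) was the largest of the 40 genes. Hells was at 3.50, 3.42 and 3.48 in the sham + WT, 4.14, 3.37 and 3.66 in the sham + Lrg1-/-, 4.403 and 4.26 in the MCAO/R + WT and 30.7, 16.6 and 12.6 in the MCAO/R + Lrg1-/- libraries. It rose by 2.19 ± 0.32 (edgeR adjusted p = 0.000860), with no overlap of the MCAO/R + Lrg1-/- libraries and the others.

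The mitotic kinases and cyclins followed, less evenly. Cdk1, the kinase that drives entry into mitosis, was at 2.93, 1.82 and 2.68 in the sham + WT, 4.38, 5.21 and 1.996 in the sham + Lrg1-/-, 2.55 and 2.35 in the MCAO/R + WT and 22.1, 11.1 and 6.27 in the MCAO/R + Lrg1-/- libraries. The MCAO/R + Lrg1-/- libraries were the highest, by 2.40 ± 0.47 (edgeR adjusted p = 0.00403) over the MCAO/R + WT group. Ccna2 (cyclin A2) was at 0.285, 0.175 and 0.292 in the sham + WT, 0.711, 2.76 and 0.333 in the sham + Lrg1-/-, 0.253 and 0.539 in the MCAO/R + WT and 3.86, 1.30 and 1.32 in the MCAO/R + Lrg1-/- libraries. Ccnb2 (cyclin B2) was at 1.81, 1.30 and 1.30 in the sham + WT, 2.25, 4.75 and 1.33 in the sham + Lrg1-/-, 1.62 and 1.40 in the MCAO/R + WT and 2.48, 3.78 and 5.16 in the MCAO/R + Lrg1-/- libraries. Both were higher in the MCAO/R + Lrg1-/- than in the MCAO/R + WT libraries, by 2.37 ± 0.68 (edgeR adjusted p = 0.0239) and 1.36 ± 0.42 (edgeR adjusted p = 0.0316), and both overlapped the sham + Lrg1-/- libraries, where replicate 2 was high. Aurkb, the kinase of the chromosomal passenger complex, and Bub1, a spindle checkpoint kinase, rose by 2.20 ± 0.45 and 2.69 ± 0.79. Ccnb1, Aurka, Plk1 and Bub1b were not called, with log2 fold changes of 0.45 to 1.78.

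Of the later mitotic genes, Birc5 (survivin, of the chromosomal passenger complex) was at 1.74, 0.849 and 0.849 in the sham + WT, 3.55, 5.37 and 0.998 in the sham + Lrg1-/-, 0.857 and 1.91 in the MCAO/R + WT and 10.5, 3.60 and 4.24 in the MCAO/R + Lrg1-/- libraries. It was called higher after MCAO/R in the Lrg1-/- group, by 2.11 ± 0.60 (edgeR adjusted p = 0.0230), and overlapped sham + Lrg1-/- replicate 2. Ube2c, which hands ubiquitin to the anaphase promoting complex, was at 2.56, 1.10 and 1.25 in the sham + WT, 5.57, 9.05 and 3.66 in the sham + Lrg1-/-, 1.27 and 3.67 in the MCAO/R + WT and 5.61, 5.73 and 4.72 in the MCAO/R + Lrg1-/- libraries. The MCAO/R + Lrg1-/- libraries were above both WT groups and within the range of the sham + Lrg1-/- group, and after MCAO/R the difference was 1.12 ± 0.48 (edgeR adjusted p = 0.0996), short of a call. Mki67 was at 3.86, 2.30 and 3.45 in the sham + WT, 9.36, 17.02 and 1.66 in the sham + Lrg1-/-, 1.56 and 2.35 in the MCAO/R + WT and 14.1, 5.34 and 5.27 in the MCAO/R + Lrg1-/- libraries. Top2a, the topoisomerase that untangles chromosomes, was at 5.93, 2.45 and 3.72 in the sham + WT, 7.70, 12.3 and 1.33 in the sham + Lrg1-/-, 4.73 and 6.03 in the MCAO/R + WT and 23.8, 8.78 and 6.51 in the MCAO/R + Lrg1-/- libraries. For both genes the MCAO/R + Lrg1-/- libraries lay above all WT libraries and overlapped the sham + Lrg1-/- libraries. Mki67 was called against the MCAO/R + WT group (2.04 ± 0.63, edgeR adjusted p = 0.0325) while Top2a was not (1.24 ± 0.61, edgeR adjusted p = 0.153). The spindle gene Tpx2 rose by 2.12 ± 0.61.

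The microtubule genes Stmn1 and Kif23 did not follow the S phase genes. Stmn1 was at 74.3, 63.9 and 48.9 in the sham + WT, 133, 78.2 and 55.2 in the sham + Lrg1-/-, 54.3 and 165 in the MCAO/R + WT and 229, 88.6 and 154 in the MCAO/R + Lrg1-/- libraries. All sham + WT libraries were below the MCAO/R + Lrg1-/- libraries, which overlapped those of the other 2 groups, and the log2 fold change between genotypes after MCAO/R was 0.52 ± 0.47 (edgeR adjusted p = 0.435). Kif23, a midzone kinesin, was at 2.51, 1.62 and 2.31 in the sham + WT, 3.20, 6.44 and 2.99 in the sham + Lrg1-/-, 2.53 and 5.39 in the MCAO/R + WT and 4.97, 2.50 and 2.45 in the MCAO/R + Lrg1-/- libraries. Each of the other groups overlapped the MCAO/R + Lrg1-/- libraries, and its log2 fold change between genotypes after MCAO/R was -0.31 ± 0.42 (edgeR adjusted p = 0.623). The remaining genes without a call, Cenpe, Cenpf, Cdc20, Nusap1, Kif11 and Kif20a, had log2 fold changes of 0.67 to 1.55.

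**Figure D4:**
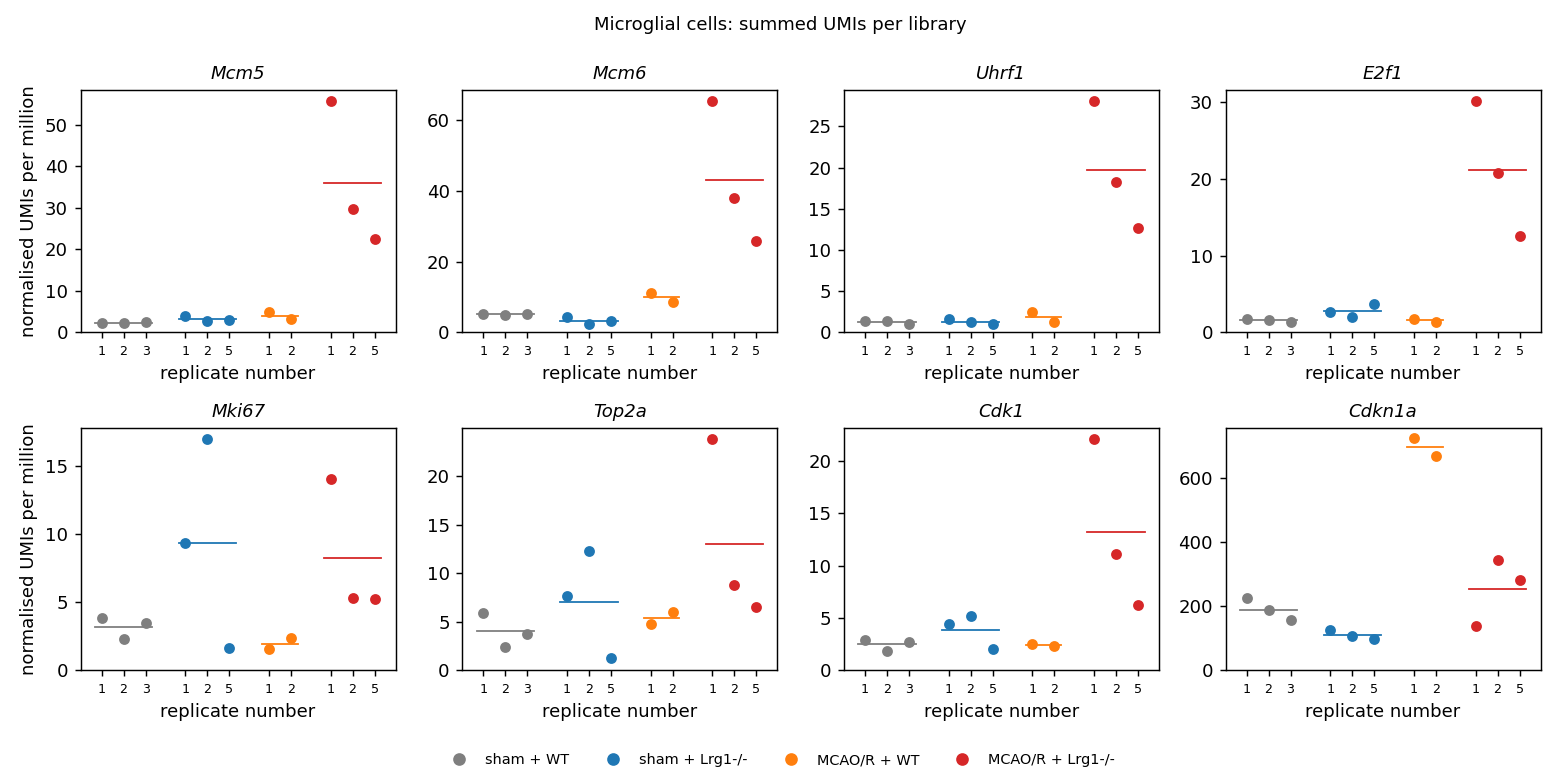
Normalised CPM (y axis, from 0) of 8 genes in microglial cells, summed per library (points; x axis, replicate number) with the group mean as a line, for the 4 groups by colour. Mcm5, Mcm6, Uhrf1 and E2f1 (top row) are high in the 3 MCAO/R + Lrg1-/- libraries alone, Mki67 and Top2a are also high in sham + Lrg1-/- replicates 1 and 2, and Cdkn1a is highest in the MCAO/R + WT libraries at 724 and 668.

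MCAO/R was then compared with sham surgery within each genotype. In the Lrg1-/- mice 17 of the 40 genes were called higher and 1 lower, against 32.6% of all genes called, 19.4% higher, and the median log2 fold change was 1.02 for the 40 genes and 0.02 over all genes. Of the 18 S phase genes 15 rose (Ccne2, Gins2 and Tk1 were not called), led by Uhrf1 at 3.83 ± 0.41 (edgeR adjusted p = 7.5e-05), Mcm6 at 3.68 ± 0.35 (edgeR adjusted p = 5.04e-05) and Mcm2 at 3.50 ± 0.38 (edgeR adjusted p = 7.53e-05). The others among them rose by 1.20 to 3.60 (edgeR adjusted p from 6.98e-05 to 0.0390). Of the 22 G2 and M phase genes only Aurkb (1.78 ± 0.47) and Cdk1 (1.66 ± 0.44) rose, and Kif11, the kinesin that pushes the spindle poles apart, fell by 1.16 ± 0.35 (edgeR adjusted p = 0.0214). Mki67 and Top2a were not called, with log2 fold changes of -0.30 ± 0.54 and 0.74 ± 0.57. The count was 18 without MCAO/R + Lrg1-/- replicate 1 and 16 without the low-UMI cluster, and 15 of the 18 calls held under every alternative.

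In the WT mice, 0 of the 40 genes were called after MCAO/R, where 16.3% of all genes were called and 9.18% were called higher. DESeq2 also called 0, and 3 genes (Mcm2, Mcm5 and Mcm6) had an unadjusted p under 0.05 in edgeR. Over all genes the share at that unadjusted level is at least the 16.3% called, so 3 of 40 is not a result about these genes. The log2 fold changes of Mcm2, Mcm5 and Mcm6 were 1.01 ± 0.35, 0.80 ± 0.33 and 0.97 ± 0.31, and the median of the 40 was 0.30 against 0.05 over all genes. With 2 MCAO/R + WT mice a change of this size was not called, which does not show that it was absent. The count was 1 to 3 when MCAO/R + WT replicate 2 or a MCAO/R + Lrg1-/- library was left out.

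After sham surgery, the Lrg1-/- mice exceeded the WT mice in 6 of the 40 genes, with 0 lower, where 19.2% of all genes were called and 10% were higher. As 15% of the 40 genes were called, this count is not a result about them. Of these, 4 belong to G2 and M phase, and the median log2 fold change was 1.30 for the G2 and M phase genes, 0.14 for the S phase genes and 0.01 over all genes. Ccna2 was higher by 2.43 ± 0.71 (edgeR adjusted p = 0.0314), Ube2c by 1.94 ± 0.45 (edgeR adjusted p = 0.0112), Cdc20, an activator of the anaphase promoting complex, by 1.69 ± 0.48 (edgeR adjusted p = 0.0282) and Kif11 by 1.55 ± 0.35 (edgeR adjusted p = 0.00885). The S phase genes called were Gins2, given above, and Ccne2 (1.23 ± 0.36). The helicase genes were not called, with log2 fold changes of -0.61 to 0.48. The sham + Lrg1-/- libraries disagreed among themselves: Mki67 was at 9.36, 17.02 and 1.66 and Top2a at 7.70, 12.3 and 1.33, with sham + Lrg1-/- replicate 5, the library with fewest microglial cells (501), the lowest. The count rested on single libraries, being 3 without sham + WT replicate 2, 2 without sham + WT replicate 3, 1 without sham + Lrg1-/- replicate 2, and 12 without either sham + Lrg1-/- replicate 5 or MCAO/R + Lrg1-/- replicate 1. Only Gins2 was called under every alternative.

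Whether MCAO/R acted differently in the 2 genotypes was tested directly with an interaction term. It was called for 10 of the 40 genes, all in the direction of a larger rise in the Lrg1-/- mice, where 4.46% of all genes were called and 2.72% in that direction. All 10 are S phase genes: Mcm2 to Mcm7, Rrm1, Tyms, Hells and Uhrf1. The interaction was largest for Uhrf1, at 3.23 ± 0.56 (edgeR adjusted p = 0.0123), then Mcm6, at 2.71 ± 0.48 (edgeR adjusted p = 0.0134), and Mcm5, at 2.64 ± 0.49 (edgeR adjusted p = 0.0151). The other 7 ranged from 1.38 to 2.49 (edgeR adjusted p from 0.0107 to 0.0418). It was called for 0 of the 22 G2 and M phase genes, 3 of which had an unadjusted p under 0.05 in edgeR and 0 of which DESeq2 called, with log2 values of 0.42 ± 0.80 for Mki67 and 0.33 ± 0.83 for Top2a. The share of all genes at that unadjusted level is not given here. The median was 1.90 for the S phase genes, 0.24 for the G2 and M phase genes and 0.01 over all genes. The 5 comparisons share groups, so they are not independent of each other. The count fell to 4 without any 1 sham + WT library or sham + Lrg1-/- replicate 1, to 3 without MCAO/R + WT replicate 2 and to 1 without sham + Lrg1-/- replicate 2, and was 10 without MCAO/R + Lrg1-/- replicate 1. Mcm3 alone was called under every alternative.

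A wider list of 62 other proliferation genes was tested as well. After MCAO/R, 32 of the 62 were called higher and 1 lower in the Lrg1-/- relative to the WT group, 33 and 0 in MCAO/R against sham in Lrg1-/- mice, 6 and 1 in the same comparison in WT mice, 6 and 4 between genotypes after sham surgery, and 10 and 0 for the interaction. The shares called in either direction were 53.2%, 53.2%, 11.3%, 16.1% and 16.1% in this order, against 25.2%, 32.6%, 16.3%, 19.2% and 4.46% of all genes, so that in WT mice and after sham surgery the list was below the share of all genes. Among the largest after MCAO/R between genotypes were Kif4 (2.81 ± 0.64), a chromosome kinesin, Pole (2.65 ± 0.36), a subunit of DNA polymerase epsilon, Lig1 (2.49 ± 0.40), which joins replicated fragments, and the kinase gene Melk (2.41 ± 0.56). The median of the 62 genes was 1.20 on the log2 scale, against 0.11 over all genes.

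The 37 regulators that act in G1 phase or hold the cycle back went both ways. In the same order of comparisons, 8 were called higher and 6 lower, 16 and 5, 6 and 4, 3 and 6, and 5 and 0. These are 37.8%, 56.8%, 27%, 24.3% and 13.5% of them, against the same shares of all genes as above. E2f1, an activator of S phase genes, was at 1.81, 1.60 and 1.35 in the sham + WT, 2.61, 1.99 and 3.66 in the sham + Lrg1-/-, 1.81 and 1.32 in the MCAO/R + WT and 30.1, 20.7 and 12.5 in the MCAO/R + Lrg1-/- libraries. It was high in the 3 MCAO/R + Lrg1-/- libraries alone, and rose by 3.73 ± 0.38 (edgeR adjusted p = 8.48e-05) against the MCAO/R + WT group with an interaction of 3.01 ± 0.50 (edgeR adjusted p = 0.0109). E2f8, an atypical E2F repressor, had 8, 3 and 4 UMIs in the sham + WT, 2, 1 and 1 in the sham + Lrg1-/-, 2 and 0 in the MCAO/R + WT and 25, 19 and 19 in the MCAO/R + Lrg1-/- libraries. E2f2 was higher in Lrg1-/- than in WT mice after MCAO/R by 2.002 ± 0.35 (edgeR adjusted p = 0.00219). The antiproliferative gene Btg2, cyclin D3 (Ccnd3) and cyclin G2 (Ccng2) fell by 1.99 ± 0.29, 1.61 ± 0.33 and 1.60 ± 0.17.

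Cdkn1a encodes the cyclin-dependent kinase inhibitor p21. It was at 225, 188 and 157 in the sham + WT, 127, 108 and 96.8 in the sham + Lrg1-/-, 724 and 668 in the MCAO/R + WT and 139, 345 and 281 in the MCAO/R + Lrg1-/- libraries. The MCAO/R + WT libraries were the highest, and MCAO/R + Lrg1-/- replicate 1 lay within the range of the sham groups. Cdkn1a rose after MCAO/R in both genotypes, by 1.87 ± 0.29 (edgeR adjusted p = 0.000948) in WT and 1.21 ± 0.27 (edgeR adjusted p = 0.00443) in Lrg1-/- mice. After MCAO/R it was lower in the Lrg1-/- group by 1.45 ± 0.29 (edgeR adjusted p = 0.00452). Of the D cyclins, Ccnd2 was at 6.09, 5.32 and 4.67 in the sham + WT, 36.7, 19.9 and 11.98 in the sham + Lrg1-/-, 10.2 and 9.14 in the MCAO/R + WT and 31.6, 14.7 and 17.6 in the MCAO/R + Lrg1-/- libraries. Its level was called higher in the Lrg1-/- mice after sham surgery (2.13 ± 0.36) and after MCAO/R (1.12 ± 0.38). Ccnd1 was at 97.8, 74.4 and 106 in the sham + WT, 70.7, 56.1 and 62.9 in the sham + Lrg1-/-, 113 and 83.4 in the MCAO/R + WT and 159, 138 and 108 in the MCAO/R + Lrg1-/- libraries. Its level rose after MCAO/R in Lrg1-/- mice (1.09 ± 0.19, edgeR adjusted p = 0.00101).

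Transcripts of other cell types in the microglial cells differed between the groups and are given beside these results. Summed over each marker list, in CPM, 5 of 5 erythroid genes were detected and were at 15.4 to 23.9 in the WT and 11243 to 24141 in the Lrg1-/- libraries, and 5 of 5 choroid plexus genes at 118 to 533 and 2595 to 9670. Monocyte genes (6 of 6 detected) were at 12.9 to 14.5 in the sham + WT, 30.5 to 32.9 in the sham + Lrg1-/-, 24.5 to 59.1 in the MCAO/R + WT and 67.8 to 143 in the MCAO/R + Lrg1-/- libraries. The lowest MCAO/R + Lrg1-/- library was above the highest of the other 8, as for the S phase genes. Within the MCAO/R + Lrg1-/- group, replicates 1, 2 and 5 were at 67.8, 143 and 129 for the monocyte genes, 13587, 17458 and 13688 for the erythroid genes, 9670, 3667 and 2595 for the choroid plexus genes and 1782, 337 and 796 for the oligodendrocyte genes. Replicate 1, the highest for the S phase genes, was thus the highest for the last 2 lists and the lowest for the first 2. Markers of neural progenitors and neuroblasts were at 10.1 to 36.3 in the WT, 9.74 to 67.7 in the sham + Lrg1-/- and 16.6 to 74.4 in the MCAO/R + Lrg1-/- libraries, with replicate 1 the highest. Markers of border-associated macrophages (6 of 6 detected) were at 27.3 to 31.2 in the WT, 55.5 to 68.2 in the sham + Lrg1-/- and 51.4, 57.9 and 39.7 in the MCAO/R + Lrg1-/- libraries, so that both Lrg1-/- groups were above both WT groups. Neutrophil markers were at 192 to 233 in the sham + WT, 214 to 252 in the sham + Lrg1-/-, 126 and 244 in the MCAO/R + WT and 79.8, 279 and 422 in the MCAO/R + Lrg1-/- libraries, and endothelial markers at 273 to 345 in the WT, 366 to 579.9 in the sham + Lrg1-/- and 124 to 462 in the MCAO/R + Lrg1-/- libraries. T cell genes were at 0.654 to 1.51 in the WT and 3.24 to 7.18 in the Lrg1-/- libraries, and in 1 library Cd3e and Cd3g were at 0. Oligodendrocyte genes were at 284 to 665 in the WT and 744 to 1462 in the sham + Lrg1-/- libraries. The 8 microglial markers themselves, among them P2ry12 and Tmem119, were at 8744 to 11243 after sham surgery and 4465 to 7067 after MCAO/R. The part of these transcripts in the result was not tested. With haemoglobin UMIs removed before thinning, the shares were 10.2, 3.54 and 2.38% in the MCAO/R + Lrg1-/- and 0.116 and 0.364% in the MCAO/R + WT libraries.

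Outside microglial cells, 8 further cell types had enough cells in every group, and 207 tests of the 40 genes were possible in them. Between genotypes after MCAO/R, 29 were called (14.01%), where 15.4% of all 106074 gene tests in these types were called. Between genotypes after sham surgery, 6 were called (2.90% against 9.90%). MCAO/R against sham gave 14 in WT mice (6.76% against 9.52%) and 18 in Lrg1-/- mice (8.70% against 8.70%), and the interaction gave 1 (0.483% against 0.758%). Every one of these shares was near or below that of all genes, so these counts are not a result about the 40 genes. The counts rested on single libraries: the 29 between genotypes after MCAO/R were 13 without MCAO/R + WT replicate 1 and 9 without replicate 2. The 6 after sham surgery were 3 without any 1 sham + WT library, and the interaction count was 2 without sham + WT replicate 1 or sham + Lrg1-/- replicate 2 and 3 without MCAO/R + Lrg1-/- replicate 5. For MCAO/R in WT mice the count was 9 and 6 without sham + WT replicates 2 and 3 and 8 and 5 without MCAO/R + WT replicates 1 and 2. In Lrg1-/- mice it was 10 and 8 without sham + Lrg1-/- replicates 1 and 2 and 8 without MCAO/R + Lrg1-/- replicate 2. Single genes in single types nevertheless moved, and 13 of the 68 calls held under every alternative. Values below are normalised CPM unless UMIs are named. Outside endothelial cells, neural progenitors and neuroblasts, and astrocytes, the calls among all genes of a type are not given here. The number of the 40 genes called within such a type is therefore not a result about them.

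In endothelial cells, which line the vessels, 38 of the 40 genes could be tested. Of the genes called for MCAO/R in WT mice, Kif23 and Uhrf1 changed most. Kif23 was at 35.2, 18.6 and 21.3 in the sham + WT, 23.3, 18.3 and 20.997 in the sham + Lrg1-/-, 107 and 115 in the MCAO/R + WT and 33.1, 40.3 and 56.4 in the MCAO/R + Lrg1-/- libraries. The MCAO/R + WT libraries were the highest, the MCAO/R + Lrg1-/- libraries were between them and most sham libraries, and sham + WT replicate 1 lay within the range of the MCAO/R + Lrg1-/- libraries. Kif23 rose after MCAO/R by 2.16 ± 0.24 (edgeR adjusted p = 7.71e-05) in WT and 1.05 ± 0.24 (edgeR adjusted p = 0.00961) in Lrg1-/- mice. After MCAO/R it was lower in Lrg1-/- than in WT mice by 1.37 ± 0.24 (edgeR adjusted p = 0.00195). Uhrf1 was at 1.39, 1.43 and 1.37 in the sham + WT, 0.870, 0.840 and 1.41 in the sham + Lrg1-/-, 4.56 and 3.37 in the MCAO/R + WT and 7.60, 9.04 and 5.22 in the MCAO/R + Lrg1-/- libraries. There was no overlap between sham and MCAO/R libraries. It rose by 1.51 ± 0.27 (edgeR adjusted p = 0.00186) in WT and 2.92 ± 0.30 (edgeR adjusted p = 0.000166) in Lrg1-/- mice, and was higher in Lrg1-/- than in WT mice after MCAO/R by 0.91 ± 0.26 (edgeR adjusted p = 0.0244).

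MCAO/R in WT mice changed 6 of the 38 genes in endothelial cells, 5 higher and 1 lower (19.4% of all genes called). Beside Kif23 and Uhrf1 these were Cdc6 (1.35 ± 0.39), Top2a (1.20 ± 0.29) and Ccne2 (0.71 ± 0.20), which rose, and Hells, which fell by 0.69 ± 0.19. MCAO/R in Lrg1-/- mice raised 8 (20.3% of all genes called), namely Uhrf1, Kif23, Ube2c (1.88 ± 0.51), Top2a (1.55 ± 0.34), Mcm5 (0.93 ± 0.26), Tyms (0.62 ± 0.17), Mcm2 (0.61 ± 0.16) and Mcm3 (0.60 ± 0.15). Between genotypes after MCAO/R, 6 were higher in Lrg1-/- mice and 2 lower (24.2% of all genes called). The higher ones were Ube2c (1.52 ± 0.50), Gins2 (1.09 ± 0.28), Cdk1 (1.04 ± 0.34), Mcm2 (1.01 ± 0.17), Uhrf1 and Tyms (0.80 ± 0.18), and the lower ones Kif23 and Ccne2, which was lower by 0.67 ± 0.21. After sham surgery Gins2 alone was called, higher in Lrg1-/- mice by 0.87 ± 0.27 (edgeR adjusted p = 0.0414) where 16.6% of all genes were called. The interaction was called for 0 of the 38 genes in edgeR, 6 of which had an unadjusted p under 0.05 and 2 of which DESeq2 called (2.09% of all genes called in edgeR). The share of all genes at the unadjusted level is not given here, so the 6 are not a result about the 38 genes. Of other cells' transcripts, 5 of 5 erythroid genes were at 384 to 1510 CPM in the endothelial cells of WT and 17022 to 29443 in those of Lrg1-/- libraries, and 8 microglial markers at 255 to 528 and 429 to 868. Choroid plexus genes (5 of 5) were at 112 to 679.7 in the WT and 2721 to 9129 in the Lrg1-/- libraries. The 6 neutrophil markers were at 21.2 and 17.2 in the MCAO/R + WT and 14.8, 258 and 592 in the MCAO/R + Lrg1-/- libraries. Their part in these results was not tested.

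Of the genes called between genotypes, Mcm2 was at 5.34, 5.72 and 5.44 in the sham + WT, 6.74, 5.78 and 6.26 in the sham + Lrg1-/-, 4.89 and 4.57 in the MCAO/R + WT and 10.7, 9.77 and 8.11 in the MCAO/R + Lrg1-/- libraries. The MCAO/R + Lrg1-/- libraries were above all others. Gins2 was at 2.05, 1.56 and 1.60 in the sham + WT, 2.83, 2.43 and 4.64 in the sham + Lrg1-/-, 2.56 and 2.37 in the MCAO/R + WT and 5.97, 4.72 and 5.40 in the MCAO/R + Lrg1-/- libraries. Again the 3 MCAO/R + Lrg1-/- libraries were the highest. Tyms was at 8.21, 9.84 and 9.11 in the sham + WT, 7.61, 9.33 and 8.88 in the sham + Lrg1-/-, 6.82 and 8.35 in the MCAO/R + WT and 11.2, 15.4 and 12.3 in the MCAO/R + Lrg1-/- libraries. The MCAO/R + Lrg1-/- libraries exceeded the rest. Cdk1 was at 1.33, 0.953 and 1.20 in the sham + WT, 1.52, 1.12 and 1.21 in the sham + Lrg1-/-, 0.905 and 1.16 in the MCAO/R + WT and 2.53, 2.38 and 1.26 in the MCAO/R + Lrg1-/- libraries. Here MCAO/R + Lrg1-/- replicate 5 overlapped other groups. The calls of Kif23 in WT mice and between genotypes, of Mcm2 between genotypes, of Top2a in Lrg1-/- mice and of Uhrf1 within both genotypes held under every alternative, and the others were lost under at least 1. The share of endothelial cells with at least 3 genes at 1000 UMIs was 0.477, 0.444 and 0.764% in the sham + WT, 0.421, 0.690 and 0.533% in the sham + Lrg1-/-, 0.419 and 0.968% in the MCAO/R + WT and 1.24, 0.676 and 0.842% in the MCAO/R + Lrg1-/- libraries. The groups overlapped.

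In vascular smooth muscle cells, Rrm1 was at 105, 114 and 108 in the sham + WT, 76.1, 77.2 and 57.2 in the sham + Lrg1-/-, 17.8 and 20.4 in the MCAO/R + WT and 45.7, 30.8 and 36.1 in the MCAO/R + Lrg1-/- libraries. The MCAO/R libraries were all below the sham libraries, and the groups did not overlap. Rrm1 fell after MCAO/R by 2.51 ± 0.17 (edgeR adjusted p = 1.46e-07) in WT and 1.04 ± 0.15 (edgeR adjusted p = 0.000311) in Lrg1-/- mice, with an interaction of 1.47 ± 0.23 (edgeR adjusted p = 0.0101). It was lower in Lrg1-/- mice after sham surgery by 0.60 ± 0.13 and higher after MCAO/R by 0.87 ± 0.19. Mcm4 was at 27.4, 33.6 and 30.3 in the sham + WT, 22.7, 24.7 and 32.8 in the sham + Lrg1-/-, 17.1 and 17.6 in the MCAO/R + WT and 19.2, 15.1 and 13.4 in the MCAO/R + Lrg1-/- libraries. Its level fell in WT and Lrg1-/- mice by 0.81 ± 0.19 and 0.76 ± 0.19. Mcm7 rose after MCAO/R in WT mice (0.99 ± 0.29), from 7.93, 7.34 and 6.78 to 12.98 and 16.1. Mcm2 and Tyms were higher in Lrg1-/- than in WT mice after MCAO/R (2.04 ± 0.53 and 1.57 ± 0.45), the former on 4 and 4 UMIs in the MCAO/R + WT libraries, and Mcm6 was lower in Lrg1-/- mice after sham surgery by 0.63 ± 0.18. The Rrm1 changes with MCAO/R and between genotypes after MCAO/R held under every alternative.

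In oligodendrocytes, Stmn1 was at 1987, 1866 and 1849 in the sham + WT, 1607, 1371 and 1321 in the sham + Lrg1-/-, 662 and 1050 in the MCAO/R + WT and 722, 726 and 1091 in the MCAO/R + Lrg1-/- libraries. It fell after MCAO/R by 1.15 ± 0.22 (edgeR adjusted p = 0.00198) in WT and 0.76 ± 0.19 (edgeR adjusted p = 0.0201) in Lrg1-/- mice, and the MCAO/R libraries lay below the sham libraries. Mcm3 was at 6.35, 6.44 and 6.28 in the sham + WT, 3.78, 7.11 and 4.78 in the sham + Lrg1-/-, 6.43 and 6.16 in the MCAO/R + WT and 11.99, 12.1 and 12.2 in the MCAO/R + Lrg1-/- libraries. The 3 MCAO/R + Lrg1-/- libraries were above all others. Its level rose by 1.27 ± 0.24 (edgeR adjusted p = 0.00510) after MCAO/R in Lrg1-/- mice. Between genotypes after MCAO/R, Mcm3 (0.94 ± 0.22), Gins2 (1.23 ± 0.24), Mcm2 (1.34 ± 0.29), Ccne2 (1.16 ± 0.34) and Uhrf1 (1.53 ± 0.50) were higher in Lrg1-/- mice. After sham surgery Gins2 (1.12 ± 0.24) and Kif20a (2.01 ± 0.55) were higher, the latter on 6, 7 and 5 UMIs in the sham + WT and 6, 4 and 1 in the sham + Lrg1-/- libraries. MCAO/R in WT mice also raised Mcm7 (0.68 ± 0.17), Nusap1 (1.85 ± 0.52), Pcna (0.44 ± 0.12) and Uhrf1 (1.77 ± 0.57). Uhrf1 was also called in Lrg1-/- mice, with too few UMIs for a fold (2, 0 and 1 after sham surgery and 7, 27 and 31 after MCAO/R). The calls of Stmn1 in WT mice, of Mcm3 in Lrg1-/- mice and of Gins2 after MCAO/R held under every alternative.

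Choroid plexus epithelial cells, which make cerebrospinal fluid, were few in the MCAO/R + WT libraries (108 and 28 cells), so low genes are given in UMIs, in the order of the replicates. After MCAO/R, Stmn1 was called higher in Lrg1-/- than in WT mice (1.61 ± 0.47), and Kif23 was lower by 2.17 ± 0.55, at 12.8 and 5.72 in the MCAO/R + WT and 1.58, 2.58 and 2.47 in the MCAO/R + Lrg1-/- libraries. Also called, on MCAO/R + WT counts too low for a fold, were Mcm3 (4 and 1 against 224, 99 and 53 UMIs), Ccne1 (0 and 0 against 27, 26 and 10 UMIs), Tyms (1 and 0 against 203, 109 and 41 UMIs), Mcm2 (1 and 1 against 184, 75 and 47 UMIs), Ube2c (0 and 1 against 92, 49 and 31 UMIs) and Cdk1 (3 and 1 against 241, 109 and 52 UMIs). Each of these 8 calls was lost when cells over 10% mitochondrial UMIs were left out, and each was lost without MCAO/R + WT replicate 1. MCAO/R in Lrg1-/- mice raised Mcm3 (1.91 ± 0.37), with 52, 22 and 24 UMIs after sham surgery and 224, 99 and 53 after MCAO/R. It also raised Mcm5 (2.32 ± 0.53), with 37, 11 and 12 and 208, 56 and 29 UMIs. After sham surgery Ube2c was called higher in Lrg1-/- mice under every alternative, with 0, 2 and 1 UMIs in 218, 193 and 145 WT cells and 184, 32 and 36 UMIs in 3152, 1377 and 494 Lrg1-/- cells.

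Border-associated macrophages, which sit along the brain's vessels and meninges, are related to microglial cells, and some of the same genes were called in them. After MCAO/R, Mcm5 was at 3.02 and 2.88 in the WT and 17.5, 11.05 and 11.04 in the Lrg1-/- libraries (log2 fold change 2.02 ± 0.49, edgeR adjusted p = 0.0265). Uhrf1 was higher too (2.86 ± 0.67), with 3 and 3 UMIs in the WT and 6, 34 and 11 in the Lrg1-/- libraries, and so was Gins2 (2.22 ± 0.57), with 12 and 1 and 6, 36 and 21. Cenpf, a kinetochore protein gene, was lower by 2.65 ± 0.65, with 20 and 32 and 2, 7 and 1 UMIs. MCAO/R in Lrg1-/- mice raised Mcm6 (1.80 ± 0.44) and lowered Cenpf, which fell by 2.63 ± 0.68. Each of these calls was lost when at least 1 of MCAO/R + WT replicate 2 and MCAO/R + Lrg1-/- replicate 2 was left out. Whether microglial cells and these macrophages differed in their response was not tested. In ciliated ependymal cells Stmn1 was higher in Lrg1-/- than in WT mice after MCAO/R (0.91 ± 0.19) and rose with MCAO/R in Lrg1-/- mice (0.66 ± 0.19). No S phase gene was called in the ependymal cells. In astrocytes 2 genes, Pcna and Stmn1, could be tested and 0 were called in any comparison by edgeR, with 0 at an unadjusted p under 0.05. MCAO/R in WT mice gave the most calls there, with 346 higher and 277 lower of all 9293 genes tested. With such a share, 0 of 2 is not a result about these genes.

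Neural progenitors and neuroblasts, the precursors of new neurons, had the highest shares in the WT libraries of all named types with at least 20 cells. The share with at least 3 genes at 1000 UMIs was 29.8, 28.9 and 23.03% in the sham + WT libraries (265, 152 and 165 cells) and 29.2 and 33.4% in the MCAO/R + WT libraries (113 and 410 cells). It was 12.3% in sham + Lrg1-/- replicate 1 (14 of 114 cells), 0 of 23 cells in replicate 2, which allows a share of up to 13.04%, and 10, 17.8 and 11.6% in the MCAO/R + Lrg1-/- libraries (30, 146 and 276 cells). Each of these Lrg1-/- libraries was below every WT library, also without Stmn1 (at most 12.3% against at least 20.6%). Depth moved with it, as the median before thinning was 12559 to 18674 UMIs per cell in WT libraries and 4009 to 7922 in Lrg1-/- libraries. Stmn1, which postmitotic cells also make, moved with genotype too. At 1000 UMIs it was held by 85.4% of these cells in the sham + WT and 88.0% in the MCAO/R + WT group. The shares were 41.3% and 62.8% in the sham + Lrg1-/- and MCAO/R + Lrg1-/- groups. The type pools progenitors with neuroblasts, and whether their mixture differed between genotypes was not tested. All 40 genes could be tested, without sham + Lrg1-/- replicate 5, which had 6 such cells, and 0 were called by edgeR in any of the 5 comparisons, while DESeq2 called 1, between genotypes after sham surgery.

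Few genes of any kind were called in these cells: 4.31% between genotypes after MCAO/R and 3.14% after sham surgery, 0.126% and 0.0474% for MCAO/R in WT and Lrg1-/- mice, and 0.00% for the interaction. Between genotypes, 7 of the 40 genes after MCAO/R and 9 after sham surgery had an unadjusted p under 0.05, with median log2 fold changes of -0.52 and -0.82. For MCAO/R the counts at that level were 0 in WT and 1 in Lrg1-/- mice, with 1 for the interaction. The share of all genes at that level is not given here, so these counts are not a result about the 40 genes. S phase genes gave 1309, 1024 and 945 CPM in the sham + WT libraries, 980.4 and 319 in sham + Lrg1-/- replicates 1 and 2, 1055 and 1160.2 in the MCAO/R + WT and 795, 869 and 579 in the MCAO/R + Lrg1-/- libraries. Sham + Lrg1-/- replicate 1 lay within the sham + WT range, while the MCAO/R groups did not overlap. G2 and M phase genes gave 5180, 5474 and 5058, then 3113 and 1276, then 3418 and 6220, and 2528, 4761 and 3886 in the same order, and here the MCAO/R groups overlapped. Without Stmn1 they were 2162, 2592 and 2245, then 1560 and 87.5, then 1187 and 2987, and 1130, 1855 and 1255. The MCAO/R groups again overlapped, and sham + Lrg1-/- replicate 2 was then below its S phase sum. T cells, with 13 to 500 cells per library, gave shares of 0 to 8.70% with at least 3 genes, and the low end is 0 of 13 cells in MCAO/R + WT replicate 2, which allows up to 23.1%.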

How the data were processed

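Right brain cells of 11 mice, with 1 library each, were profiled with the 10x Genomics 3′ kit. The authors' deposited files hold raw UMI counts per gene and cell, made with Cell Ranger against mm10. The matrix headers name version 7.0.1 while the methods name another, and the matrices still hold cells below the methods' cell filter, which is applied here. Reads of overlapping genes or near-identical copies can be lost or split by such counting.

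Cells with over 500 genes, over 1000 UMIs and under 25% mitochondrial UMIs were kept, and doublets were called per library with simulated doublets at an expected 6% (2.63 to 6.00% removed). In 6 libraries, 5 of them Lrg1-/-, the automatic threshold marked almost none and the highest 6% of scores were removed. Cells were clustered on 2000 variable genes and 15 components at resolution 0.3, without mitochondrial, cell cycle and histone genes, and the resulting 38 clusters were named from fixed markers, so that 5 clusters (27660 cells) stayed unnamed. The rules for splitting and naming clusters were set after the clusters were seen. Cell types are rebuilt here and can differ from the study's.

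For shares, each cell was thinned to 1000 UMIs. For tests, UMIs were summed per library and type (at least 20 cells) and fitted over all 4 groups with the edgeR 4.0.16 quasi-likelihood test (R 4.3.3, limma 3.58.1), TMM scaling and filterByExpr, and p-values were adjusted over all genes tested (Benjamini-Hochberg). Tests are two-sided. The edgeR fit alone was tried on simulated data, made from the microglial libraries with changes placed in the MCAO/R + Lrg1-/- group. The other steps and cell types were not tried in this way. Alternatives were another scaling, no filter, DESeq2 1.42.0, a replicate block, doublets kept, a 10% mitochondrial limit, another depth or number of genes for the shares, haemoglobin UMIs removed, each library left out and, chosen after seeing the data, without Stmn1 or without 1 low-UMI cluster. Python 3.11.15, numpy 2.4.6, scipy 1.17.1, scikit-learn 1.9.0 and matplotlib 3.10.9 were used.

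The 40 genes, the wider lists and the tests were chosen with earlier results of these data known. Every called gene of the 40 is named in each comparison described, and values per library are given for a fixed set of genes in microglial cells. Genes called in at least 2 cell types in the same comparison are given by library in some of these types and as fold changes alone in others. Of the wider lists, up to 6 called genes each are named by size, and some are not reported here. Wilson intervals and limits from a count of 0 cover counting error only. Libraries held 37159497 to 171813031 UMIs, with medians of 3190 to 11500 UMIs per cell.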

Additional observations from a re-analysis of the deposited data

Results flagged for a closer look

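For 11 results the response to MCAO/R differed between Lrg1-/- and WT mice by the test of that difference, the interaction term of the edgeR fit. In microglial cells the log2 interaction was 3.23 for Uhrf1, 2.71 for Mcm6, 2.64 for Mcm5, 2.49 for Mcm2, 2.48 for Mcm3, 2.08 for Hells, 2.03 for Mcm7, 1.98 for Tyms, 1.82 for Mcm4 and 1.38 for Rrm1. Each of these 10 S phase genes was called after MCAO/R in Lrg1-/- and not in WT mice, and Mcm3 alone of them was called under every alternative. In vascular smooth muscle cells it was 1.47 for Rrm1, which fell less in Lrg1-/- than in WT mice and was not called with a replicate block. The interaction shares all 4 groups with the other comparisons, and genotype cannot be told apart from supplier, depth and haemoglobin content of the libraries.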

How the results depend on the processing

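The alternatives turned no called gene around: of the values for single called genes under an alternative, 1864 kept the call, 347 lost it and none changed direction. In microglial cells the counts of called genes out of 40 ranged, leaving out 1 library at a time, from 16 to 26 between genotypes after MCAO/R, 17 to 19 for MCAO/R in Lrg1-/- mice, 0 to 3 in WT mice, 1 to 12 between genotypes after sham surgery and 1 to 14 for the interaction. Over the 8 other types these ranges were 9 to 32, 8 to 20, 5 to 16, 3 to 9 and 1 to 3. Where leaving a library out left 1 in a group, that library was assumed to vary like the rest. With no filter on low counts, the count in WT mice in microglial cells was 2 and that after sham surgery 10, and in the other types the counts were 48 between genotypes after MCAO/R, 34 for MCAO/R in Lrg1-/- mice, 27 after sham surgery and 4 for the interaction. DESeq2 called 10 after sham surgery in microglial cells and 5 for the interaction in the other types. In WT mice 1 gene was called in microglial cells with doublets kept, 1 with a 10% mitochondrial limit and 1 without the low-UMI microglial cluster, the last chosen after seeing the data, and with doublets kept the interaction count in the other types was 3. The share of all genes called was not kept under any alternative, and more genes enter the tests without the filter. None of these counts is therefore a result about the 40 genes. The cause of these changes was not tested.

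Correlations of same-numbered libraries' deviations from their group means ran from -0.457 to 0.148 in microglial cells, and those of differently numbered libraries from -0.286 to 0.457. The 2 MCAO/R + WT libraries deviate from their mean by equal and opposite amounts, so these correlations cannot settle whether equal numbers pair the libraries. With a replicate block, fitted without sham + WT replicate 3, the counts were 2 after sham surgery and 4 for the interaction in microglial cells, and 6 for MCAO/R in WT mice, 2 after sham surgery and 0 for the interaction in the other types.

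Differences in the share of microglial cells with at least 3 genes, in percentage points, moved with the setting. For MCAO/R in WT mice 0.0912 became 14.5 unthinned, 1.61 at 3000 UMIs, 1.18 with at least 2 genes and -0.0425 with at least 5, and ran from 0.00242 to 0.180 leaving 1 library out. For MCAO/R in Lrg1-/- mice 4.23 became 29.1 unthinned, 19.9 at 3000 UMIs, 10.5 with at least 2 genes and 0.55 with at least 5, and ran from 2.02 to 5.47. Between genotypes after MCAO/R 4.58 became 2.11 unthinned, 19.1 at 3000 UMIs, 11.4 with at least 2 genes and 0.719 with at least 5, and ran from 2.37 to 5.83. After sham surgery 0.443 became -12.6 unthinned, 0.755 at 3000 UMIs, 2.06 with at least 2 genes and 0.127 with at least 5, and ran from 0.331 to 0.591. Without Stmn1, chosen after seeing the data, the 4 differences were 0.00950, 2.79, 3.04 and 0.268. Depth differed between genotypes, so the unthinned shares compare libraries of unequal depth. The MCAO/R + WT group held 2 mice, so its spread is the least well known, and types with few cells per library limit what could be called.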

Other observations

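The largest unnamed cluster held 18998 cells, 16830 of them in the MCAO/R + Lrg1-/- libraries, and was led by S100a8, S100a9 and Retnlg, genes of neutrophils. Its scores over the markers of neutrophils (3.06) and oligodendrocytes (2.57), each the mean log2 ratio of the markers to their median over all clusters, were close, and it enters no comparison. Unnamed cells of all 5 clusters numbered 832, 1495 and 17182 in MCAO/R + Lrg1-/- replicates 1, 2 and 5, so most came from replicate 5. Over all cells of the 5 unnamed clusters the share with at least 3 of the 40 genes at 1000 UMIs was 3.73, 3.35 and 3.05% in the sham + WT, 2.14, 0.775 and 0.593% in the sham + Lrg1-/-, 2.38 and 7.89% in the MCAO/R + WT and 3.25, 1.54 and 1.90% in the MCAO/R + Lrg1-/- libraries. By cluster the share was 9.38% (167 of 1781 cells) in 1 of them, 1.88% in the largest and 1.24, 0.756 and 0.420% in the rest. In pericytes it was at most 0.349%, and in neutrophils of the MCAO/R + Lrg1-/- libraries 0, 0 and 0.695%, with 13, 290 and 1151 cells.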
